A study of Mus musculus with 3 samples.

Results

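Untreated bone marrow-derived macrophages (BMDMs) of the mouse strain C3H/HeN were described in the Ctrl library, which held PBS-treated cells. The mice were 6 to 8 weeks old, and their marrow had been cultured in L929-conditioned medium, the usual source of the growth factor M-CSF. By the paper, cells from 3 mice were treated in separate wells, then detached and pooled before droplet capture. Ctrl is thus 1 library without a replicate, in which cells of different mice cannot be told apart, and no test was made. In droplet capture a barcode marks the droplet a transcript came from, and a molecular identifier (UMI) counts it once. A Ctrl barcode was taken as a cell when both its UMIs and its genes numbered over 500 and symbols starting with mt- held less than 5% of its UMIs, which kept 6071 of 6123 barcodes (99.2%, exact binomial 95% interval 98.9 to 99.4). These are 6071 of the 15806 cells that pass the same limits in all 3 libraries of the series. The paper states these limits but reports fewer cells in total and slightly more Ctrl barcodes, and the reason was not tested. At the edges of the limits, the kept cell with the fewest genes had 501 and the barcode with the most among those removed for too few genes had 496, and the mitochondrial share was 4.82% in the highest kept cell and 5.11% in the lowest barcode removed for it.

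The cells held 35688939 UMIs and a median of 5133 UMIs per cell, with 5% of cells under 2481.5 and 5% over 11895.5. The median cell had 2026 genes with a UMI and 1.97% mitochondrial UMIs. At least 1 UMI was found for 19821 of 32285 genes. All intervals below are exact at the 95% level and cover counting error only.

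A macrophage grown from marrow depends on M-CSF, which it senses through CSF1R, while the transcription factor PU.1 (*Spi1*) sets its lineage. It is a professional phagocyte whose lysosomes digest what it takes up, and it recycles iron and lipid, so ferritin, cathepsin and lipid-binding proteins belong to its resting program. It also stands ready for microbes through Toll-like receptors, and microbial signals lead it to make chemokines and interferon.

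The 5 genes used as identity markers were all found, at very unequal levels. *Fth1*, the heavy chain of the iron store ferritin (chromosome 19, 9980598 to 9985098, GRCm38), stood at 46665 CPM (its UMIs per 1000000 UMIs of all kept cells). *Lpl*, lipoprotein lipase (chromosome 8, 68880491 to 68907448), stood at 2080.2 CPM. *Cd68*, a glycoprotein of the lysosomal membrane (chromosome 11, 69664213 to 69666153), stood at 882 CPM. *Csf1r*, the M-CSF receptor (chromosome 18, 61100598 to 61132149), stood at 769 CPM, and *Adgre1*, which encodes F4/80 (chromosome 17, 57358691 to 57483527), at 169 CPM. UMIs count 1 end of a transcript, so CPM was not divided by gene length.

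Depth differs between cells, so 2000 UMIs were drawn from each cell for every value per cell, which left out 122 shallower cells and kept 5949. At this depth a cell held a median of 83 *Fth1* UMIs, with 33 at the 5th and 175 at the 95th percentile. The same 3 values were 0, 3 and 11 for *Lpl*, 0, 2 and 4 for *Cd68*, 0, 1 and 4 for *Csf1r* and 0, 0 and 2 for *Adgre1*. *Fth1* was thus counted in nearly every cell, while *Lpl* ranged from none to many copies. At least 1 UMI was seen in 99.97% of cells for *Fth1*, 80.3% for *Cd68*, 75.8% for *Csf1r*, 72.4% for *Lpl* and 28.7% (27.6 to 29.9) for *Adgre1*. A gene spread evenly over cells at the same mean would be seen in 82.4% of cells for *Cd68*, 79.8% for *Csf1r* and 29.6% for *Adgre1*. For *Lpl* it would be 97.6%, far above the measured share. Without drawing to equal depth, *Adgre1* was seen in 56.4% and *Csf1r* in 94.5% of cells. *Ptprc*, the leukocyte antigen CD45, was at 371 CPM.

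Clustering of the 6071 cells gave 7 clusters, which were named from marker lists. Clusters 1, 2, 4 and 6 were macrophage-like and held 4561 cells (75.1%, 74.0 to 76.2). Cluster 5, with 502 cells, was cycling, a number that was 381 at a resolution of 0.3 and 990 at 0.8. Cluster 7, with 30 cells, was neutrophil-like, led by *S100a9*, *Ngp* and *S100a8*. Cluster 3, with 978 cells (16.1%), had *Itgb3*, *Ctsk*, *Mmp9* and *Atp6v0d2* of the osteoclast list among its leading genes, which met the naming rule for osteoclast-like, yet *Oscar* and *Calcr* had no UMI in the library and *Ocstamp* was at 2.49 CPM. Since *Cd68* was seen in 83.2% and *Csf1r* in 68.8% of its cells at 2000 UMIs, it is called cluster 3 here and is given no cell type. The doublet caller marked 0 of 6071 cells at its score threshold of 0.477, and the reason was not tested. No cell was removed as a doublet, so doublets may remain among the cells. The 342 cells with the highest doublet scores made up 21.8% of cluster 4 and 6.37% of cluster 5, whose median depths were the highest of the 7, at 8537 and 8057 UMIs.

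**Figure D1:**
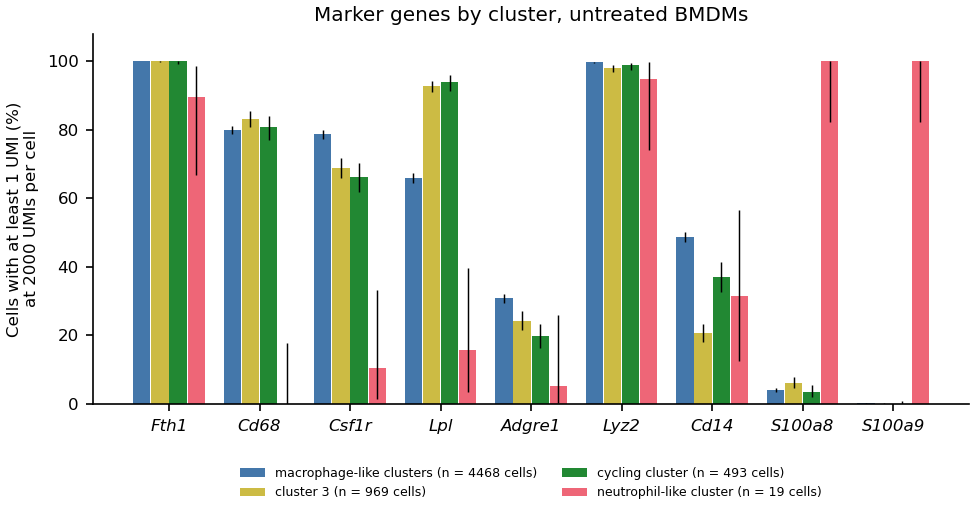
Share of cells with at least 1 UMI of each gene (vertical axis, percent) after every cell was drawn to 2000 UMIs, in the macrophage-like clusters, cluster 3, the cycling cluster and the neutrophil-like cluster. Lines are exact binomial 95% intervals. *Cd68*, *Csf1r*, *Lpl* and *Adgre1* are lowest in the 19 neutrophil-like cells, where *S100a8* and *S100a9* are in every cell.

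Free RNA in droplets can give a cell UMIs of genes it does not express. The neutrophil-like cells with 2000 UMIs, 19 in number and of 3923 median UMIs against 4743 in macrophage-like cells, served as a background. *Csf1r* was seen in 2 of them (10.5%, 1.30 to 33.1) and in 78.6% of 4468 macrophage-like cells. *Adgre1* was seen in 1 (5.26%, 0.133 to 26.0), against 30.8%. *Cd68* was seen in 0 of 19 cells, which allows a share of up to 15.8% (a limit of 3 counts, not an interval), against 80.01%. *Lpl* was seen in 3 (15.8%, 3.38 to 39.6), against 65.9%. *Fth1* was seen in 17 of 19 cells (89.5%), at a mean of 4.89 UMIs against 83.6. By mean UMIs, all 5 stood above this background. The 5 genes were among the markers used to name the clusters, so this is a description.

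Few genes made up much of the RNA. The 10 most abundant genes took 15.6% of UMIs, the top 50 took 27.4% and the top 500 took 57.5%. Ribosomal protein genes took 11.0%, from 89 genes, and mitochondrial genes 2.00%. The top 10, in order, were *Fth1*, *Ftl1*, *Gm42418*, *Lgals3*, *Actb*, *Lyz2*, *Tmsb4x*, *Ctsd*, *Gpnmb* and *Malat1*. *Ftl1*, the ferritin light chain, stood at 25179.6 CPM, and both ferritin chains have near-identical processed pseudogenes, to which their reads can be assigned. *Gm42418* (chromosome 17, 39846958 to 39848788), at 21737 CPM, overlaps ribosomal RNA sequence, and without it the 10 most abundant genes took 14.4%. It was at 30382 CPM in cluster 1 and 14362 CPM in the cycling cluster.

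**Figure D2:**
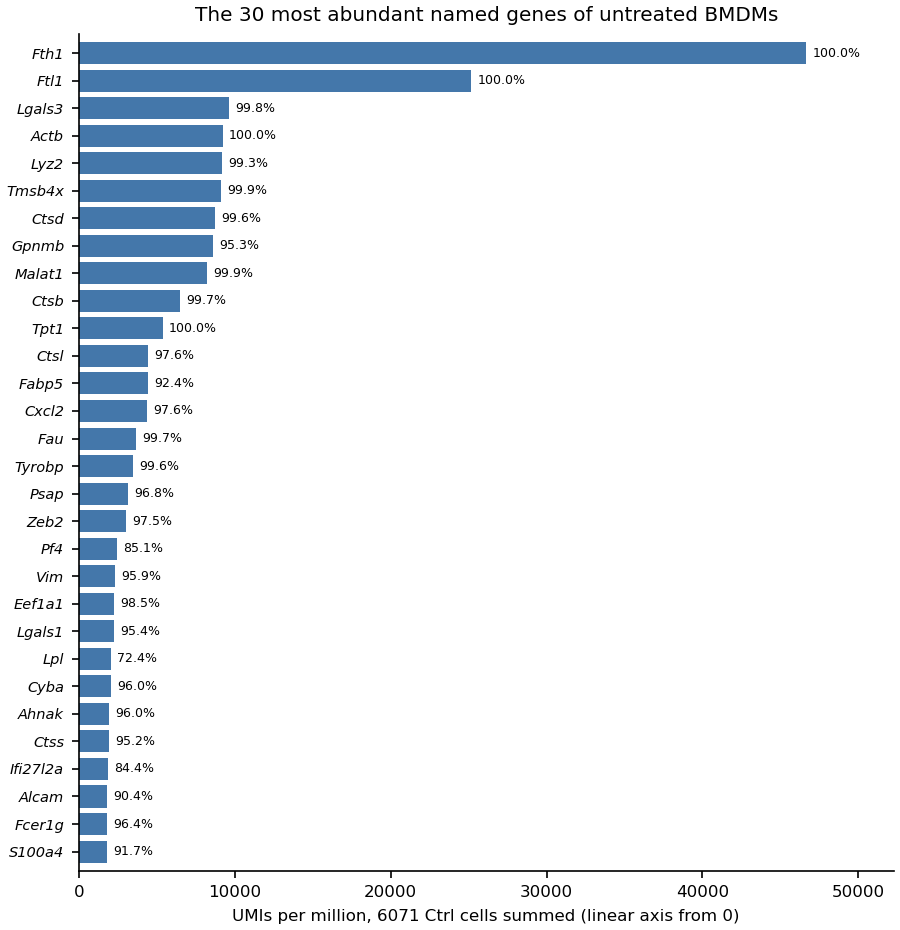
Level of the 30 most abundant named genes in the 6071 untreated cells, in CPM on a linear axis from 0, with the share of cells with a UMI at 2000 UMIs written beside each bar. Counting intervals are narrower than the line of a bar. *Fth1* and *Ftl1* stand far above the rest, and *Lpl* is in the smallest share of cells, 72.4%.

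By role, the iron list had the highest sum of the functional lists, followed by the lysosome, actin with 35101 CPM, matrix and adhesion with 28152 CPM, led by the lectin *Lgals3* at 9667 CPM, and lipid handling. The lysosomal list of 33 genes summed to 38629.8 CPM, and 30 of its members were at 50 CPM or more. Its leaders were the proteases *Ctsd* at 8732 CPM, *Ctsb* at 6473 CPM and *Ctsl* at 4454 CPM, and *Psap*, a precursor of lipid-degrading cofactors, at 3152 CPM. All 16 listed subunits of the V-ATPase, the proton pump that acidifies the lysosome, were at 50 CPM or more, led by *Atp6v0c* at 1360.2 CPM. The iron list summed to 72989 CPM, nearly all of it ferritin. The heme-degrading enzyme *Hmox1* was at 123 CPM, the transferrin receptor *Tfrc* at 127 CPM and the iron exporter *Slc40a1* at 10.3 CPM. The mitochondrial ferritin *Ftmt* had no UMI.

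The 20 lipid genes summed to 23807 CPM. They were led by *Gpnmb*, a glycoprotein of lysosome-rich macrophages, at 8623 CPM and by the fatty acid-binding *Fabp5* at 4425 CPM. *Trem2*, a receptor for lipids and cell debris, was at 1616 CPM and its signalling partner *Tyrobp* at 3478 CPM. The scavenger receptor *Cd36* was at 694 CPM and *Apoe*, a carrier of cholesterol, at 352 CPM. *Actb* and *Tmsb4x*, which encode actin and the actin-binding thymosin beta 4, were at 9232 and 9105 CPM. The glycolytic enzymes were led by *Gapdh* at 1109.9 CPM and *Pkm* at 1075 CPM.

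Of the transcription factors of the lineage, *Zeb2*, which maintains macrophage identity, was highest at 3015 CPM. *Mitf*, a lysosomal regulator, was at 980 CPM, *Runx1* at 593 CPM and *Spi1* at 561 CPM. *Pax5*, the B cell factor, had no UMI. Genes of resident macrophages of tissues were scarce. None of 16 reached 50 CPM, with *Marco* highest at 45.5 CPM, and the liver gene *Clec4f*, the microglial *Sall1* and *Car4* had no UMI.

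Untreated cells held much chemokine RNA. *Cxcl2*, a neutrophil attractant, stood at 4378 CPM and was seen in 97.6% of cells at 2000 UMIs. In the neutrophil-like background it was in 9 of 19 cells (47.4%, 24.4 to 71.1) at a mean of 0.895 UMIs, against 99.6% and 10.6 UMIs in macrophage-like cells. *Pf4*, a chemokine otherwise known from platelets, stood at 2478.5 CPM, while the megakaryocyte genes *Gp9* and *Gp1bb* had no UMI and *Itga2b* was at 0.588 CPM. *Tnf* was at 840 CPM and in 71.3% of cells, but it was also in 73.7% of the neutrophil-like cells, so its share cannot be read against that background. *Cxcl1* was at 623 CPM and *Il1b* at 391 CPM. The cytokines *Il6* and *Il12b* were scarce, at 1.09 and 0.532 CPM, and so was *Nos2*, the nitric oxide synthase of activated macrophages, at 0.392 CPM. *Ifnb1*, at 0.0560 CPM, lay below the level of 3 UMIs, and *Retnla* had no UMI. A gene with 0 UMIs is below 0.0841 CPM, the level of 3 UMIs.

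Of the pattern recognition list, *Nlrp3*, the sensor of an inflammasome, was highest at 573 CPM. The lipopolysaccharide co-receptor *Cd14* was at 291 CPM, the lipoprotein receptor *Tlr2* at 107 CPM, its partners *Tlr1* and *Tlr6* at 8.71 and 7.76 CPM, and the adaptor *Myd88* at 15.4 CPM. The endosomal *Tlr13* and *Tlr7* were at 130 and 68.2 CPM, and *Tlr12* had no UMI. The immediate early list, whose genes are known to rise when cells are detached, summed to 9733 CPM, with *Nfkbia* at 1199 CPM, *Klf6* at 747 CPM and *Fos* at 712 CPM. The part of detachment in these levels was not tested.

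Class I antigen presentation genes *H2-K1*, *H2-D1* and *B2m* were at 368, 323 and 247 CPM. The class II genes *H2-Aa* and *H2-Ab1* were at 13.6 and 11.3 CPM, and their activator *Ciita* at 2.05 CPM. C3H mice carry other alleles of this locus than the C57BL/6 reference, and the effect of this on the counts was not tested. Of the lists of other myeloid cells, the 18 neutrophil genes summed to 640 CPM, led by *S100a8* at 179 CPM and by *Mmp8*, which was at 174 CPM and at 216 CPM in cluster 1 against 124 CPM in the neutrophil-like cluster, the 10 osteoclast genes to 507 CPM, led by *Atp6v0d2* at 194 CPM, the dendritic cell genes to 171 CPM, led by *Cd74* at 118 CPM, and the monocyte genes to 88.7 CPM, led by *F13a1* at 40.4 CPM. The lists of other lineages, apart from *Pf4* on the megakaryocyte list, were close to empty. Listed genes of T cells summed to 1.37 CPM, of NK cells to 0.112 CPM, of erythroid cells to 0.224 CPM, of stromal cells to 5.52 CPM, of endothelial cells to 8.55 CPM, of mast cells and basophils to 4.40 CPM, of progenitors to 5.41 CPM and of B and plasma cells to 10.6 CPM. *Cd3e*, *Trac*, *Cd8a*, *Ncr1*, *Gzma*, *Fcer1a* and *Lum* had no UMI.

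To find the genes that differed most between cells, the coefficient of variation (CV) of the UMIs per cell was computed at 2000 UMIs after the variance that counting alone gives was subtracted. A CV of 0.5 is an SD of 50% of the mean. Of 3147 genes with a mean of at least 0.1 UMIs per cell, 1447 (46%) had a CV of at least 0.5, and the median CV was 0.472. Ribosomal protein genes were even, with a median CV of 0.282 and none of 82 at 0.5 or above.

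The genes with the smallest CV, among those with a mean of at least 1 UMI, were *Serf2* (0.130), *Gabarap* (0.135), *Cox8a* (0.190), *Pfdn5* (0.192) and *Arpc1b* (0.195), followed by *Cox4i1*, *Arpc2*, *Atp6v0b*, *Eef1a1* and *Erp29* up to 0.231. Most encode parts of respiration, autophagy, the actin-branching Arp2/3 complex, the V-ATPase and protein folding and synthesis. Their order cannot be read, since with another random draw *Serf2* had 0.222, *Gabarap* 0.0973 and *Arpc1b* 0.138. *Gabarap* was seen in 81.4% of cells, and an even spread would give 81.5%.

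Against these 46% of all tested genes, members of the interferon-stimulated list reached it in 13 of 13 tested, with a median CV of 1.13. The matrix held 21 genes of this list, and those with a mean under 0.1 UMIs were not tested. *Ifit2* passed at a mean of 0.102 UMIs, with UMIs in 6.40% of cells. A scarce gene can pass because few cells hold many copies, which also raises its CV. The count of 13 is thus not a free comparison with 46%, and the counts of the other lists share this limit. Cytokines and chemokines reached it in 18 of 19, with a median of 1.44, and complement genes in 8 of 8, with a median of 1.52. Immediate early genes reached it in 28 of 33 (median 0.861), oxidant defence in 14 of 16 (0.691), matrix and adhesion in 19 of 22 (0.683) and lipid handling in 13 of 18 (0.759). Lower counts came from the lysosome with 12 of 31 (0.401), actin with 9 of 28 (0.396) and the V-ATPase with 5 of 16 (0.370). Phagocytic receptors reached it in 13 of 19 (0.685) and pattern recognition genes in 7 of 9 (0.703).

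Within a list the members could differ widely. *Lamp2* and *Ctsb* of the lysosome had CVs of 0.164 and 0.340, and *Ctsc*, which activates the proteases of granules, and *Ctsk*, the collagen-degrading protease of osteoclasts, had 2.04 and 4.48. Among V-ATPase subunits *Atp6v1f* had a CV of 0.146 and *Atp6v0d2* one of 1.57. *Tyrobp*, *Fcer1g* and *Trem2*, receptors or their signal adaptors, lay between 0.254 and 0.324, while the mannose receptor *Mrc1* had 1.39 and the apoptotic cell receptor *Mertk* 1.77.

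Over all cells, the largest CVs were those of *S100a9* (19.2) and *S100a8* (17.2), for which 7 and 8 cells held 50% of all UMIs. *Hist1h1b*, *Hist1h2ap* and *Top2a* of the cycling cluster, and *Ctsk* and *Mfge8* of cluster 3, were also among the 15 largest. Histone genes have near-identical copies, between which reads can be split. Variation was therefore also measured within the macrophage-like cells alone, of which 4468 had 2000 UMIs. There 1399 of 3100 genes had a CV of at least 0.5, with a median of 0.471.

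In these cells the most variable genes, those described next, had CVs from 2.21 to 8.59, and most were found in few cells. *Saa3*, an acute phase apolipoprotein (chromosome 7, 46711998 to 46715700), had the largest. Its rank was not stable, since over all cells its CV was 9.07 but 4.76 with the stricter cell filter and 4.73 at 4000 UMIs, where *Rsad2* had 6.03 and 6.16 and *Cd74* 5.35 and 5.59. Its median was 0 UMIs, 1% of cells were above 3 and the highest cell had 86, and 56 of 4468 cells held 50% of its UMIs. It was seen in 7.36% of cells, where an even spread would give 15.4%. *Saa3* stood at 450 CPM in the neutrophil-like cluster, 242 CPM in cluster 6 and 91.6 CPM in cluster 1. *Rsad2*, which encodes the antiviral viperin, had a CV of 5.73 and was in 9.15% of cells, with 42 UMIs in the highest. *Cd74*, the chaperone of class II molecules, had 5.19, and 54 cells held 50% of its UMIs.

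*C1qa* and *C1qb*, subunits of the complement protein C1q, had CVs of 2.78 and 2.60 and were in 11.6% and 10.6% of macrophage-like cells. *Apoe* combined a high level with a high CV. It was seen in 28.7% of macrophage-like cells at a mean of 1.07 UMIs, where an even spread would give 65.8%. Its CV was 2.39, 233 cells held 50% of its UMIs and the highest cell had 39. *Mmp12*, the macrophage elastase, was similar, with a CV of 2.43 and UMIs in 20.5% of cells. *Csf1*, which encodes M-CSF itself, was in 9.94% with a CV of 2.98, and *Gclc*, of glutathione synthesis, in 10.6% with 2.78. *Fgf13*, an intracellular member of the fibroblast growth factor family, was in 24.4% with 2.21.

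Other genes among the 30 largest, *Ifitm1*, *Adamts1*, *Ifit2*, *Cav1*, *Oasl1*, *F13a1*, *Mmp13*, *Ifit3*, *Acsl1*, *Isg15*, *Plpp3*, *Jdp2*, *Il15*, *Abcb1b*, *Chst11*, *P4ha1*, *Adra1a*, *Map3k5* and *Mfge8*, were in 6.51% to 27.5% of cells. They include the monocyte gene *F13a1*, the collagenase *Mmp13*, the caveola protein *Cav1* and genes of the interferon-stimulated list such as *Ifit2*, *Ifit3* and *Oasl1*.

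**Figure D3:**
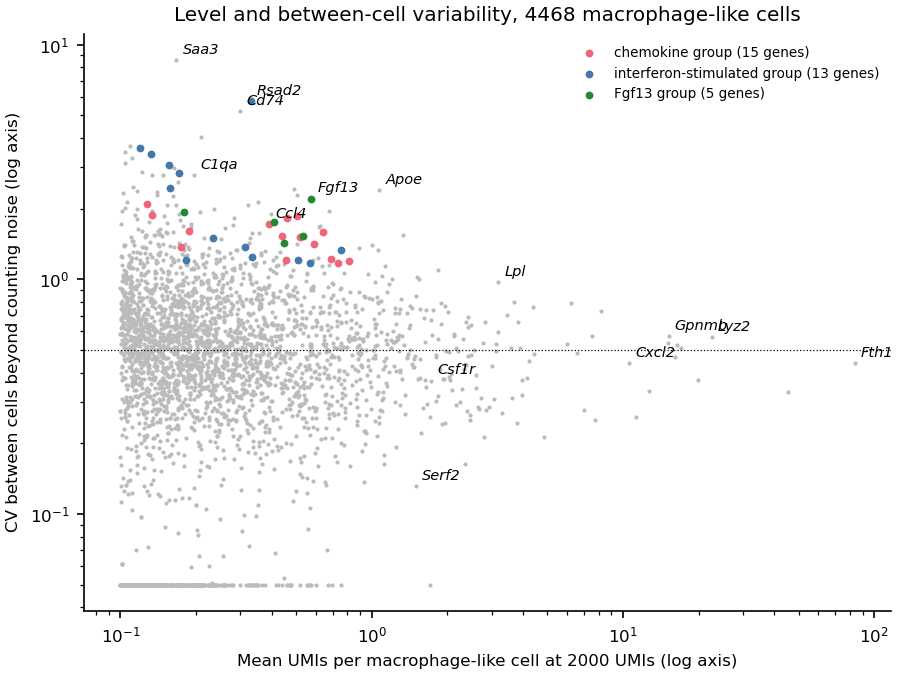
Mean UMIs per cell at 2000 UMIs (horizontal, log axis) and CV between cells beyond counting noise (vertical, log axis) for named genes in 4468 macrophage-like cells. Values under 0.05 are drawn at 0.05 and the dotted line marks 0.5. *Saa3*, *Rsad2* and *Cd74* lie highest, *Apoe* stands out near a mean of 1, and *Fth1* is the most abundant.

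To see which variable genes rose and fell together, the 200 named genes with the largest CV in macrophage-like cells were correlated over these 4468 cells, as Pearson's r of log2(UMIs + 1). All cells share 1 library and the same depth of 2000 UMIs, and no p-value is given for cells. Sparse counts hold such values low. The median over all pairs was 0.0022, and a gene correlated with itself between separate draws of 2000 UMIs from the same 2971 cells at a median of 0.252. Average linkage put 33 of the 200 genes into 3 groups, and the other 167 joined none.

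The first group, called the chemokine group after its 3 leading genes, had 15 genes, led by *Ccl7*, *Ccl3*, *Ccl4*, *Cd86*, *Rcan1*, *Ctsc*, *Egr3* and *Zfp36l1*. It also held *Nr4a3*, *Emp1*, *Mertk*, *Man1a*, *Egr1*, *Ccl2* and *Il1rn*. *Ccl2* and *Ccl7* attract monocytes, *Ccl3* and *Ccl4* encode the macrophage inflammatory proteins, *Cd86* encodes a T cell co-stimulator and *Il1rn* the antagonist of interleukin 1. 4 members, *Egr1*, *Egr3*, *Nr4a3* and *Zfp36l1*, are on the immediate early list and 5 on the cytokine list. The mean r within the group was 0.222 and the highest, of *Ccl3* with *Ccl4*, was 0.478. When the genes of a pair came from separate draws the mean was 0.192. Per cell the 15 genes summed to a median of 4 UMIs, with 0 at the 5th and 22 at the 95th percentile. Their sum was 5579 CPM in cluster 1, 2671 CPM in cluster 6, 2612 CPM in cluster 4 and 1319 CPM in cluster 2.

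The second group had 13 genes, led by *Rsad2*, *Ifit2*, *Ifit3*, *Isg15*, *Parp14*, *Ifi203*, *Rnf213* and *Oasl1*, with *Irf7*, *Il15*, *Epsti1*, *Pde7b* and *Mndal*. *Ifit2* encodes a binder of viral RNA, *Isg15* a ubiquitin-like modifier and *Irf7* a transcription factor that drives interferon genes. 6 of the 13 are on the interferon-stimulated list. *Ifit3* has a near-identical neighbour, and *Ifi203* and *Mndal* belong to a family of similar genes, so their counts are uncertain. The mean r was 0.221 and that of *Rsad2* with *Ifit2* was 0.563, the highest of all pairs. The sum had a median of 2 UMIs per cell and a 95th percentile of 12. It stood at 14145 CPM in cluster 6, whose 112 cells (1.84%) had such genes as their leading genes, and between 887 and 2172 CPM in clusters 1 to 5. *Rsad2* itself was at 3943 CPM in cluster 6 and at 87.2 CPM in cluster 1. Interferon is known to induce many of its target genes through the interferon-stimulated response element. The RefSeq promoters (GRCm38.p6, from the C57BL/6 reference) of the 3 members below show the 150 bases before the start on the strand of the gene, with the core of that element, GAAA repeated after 2 bases of any kind, in capitals on whichever strand it lies. They were chosen as the best correlated members with a match, and lie at chr12:26456453-26456602 (minus strand), chr19:34583379-34583528 (plus strand) and chr4:156200819-156200968 (minus strand), in the order shown.
*Rsad2*: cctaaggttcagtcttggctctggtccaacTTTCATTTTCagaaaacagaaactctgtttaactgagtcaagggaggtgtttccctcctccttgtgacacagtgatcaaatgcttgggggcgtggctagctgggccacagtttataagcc
*Ifit3*: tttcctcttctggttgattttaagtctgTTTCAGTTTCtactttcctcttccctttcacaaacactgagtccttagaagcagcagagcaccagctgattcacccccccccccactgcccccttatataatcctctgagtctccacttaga
*Isg15*: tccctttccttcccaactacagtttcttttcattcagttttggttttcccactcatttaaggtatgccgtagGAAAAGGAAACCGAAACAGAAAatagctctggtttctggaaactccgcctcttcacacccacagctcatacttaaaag

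The core lay from 120 to 111 bases before the start of *Rsad2* and from 122 to 113 bases before that of *Ifit3*, on the opposite strand to the gene. *Isg15* held 3 overlapping matches on its own strand. Of the 11 members with a promoter in the table (250 bases before to 50 after the start), *Rsad2*, *Ifit3*, *Isg15*, *Ifi203* and *Mndal* held the core (45.5%), against 3.99% of all 27025 genes with a promoter in the table and 3.44% of all 32851 promoters. *Ifi203* and *Mndal* share near-identical sequence around the same match, and a second promoter of *Mndal* held another match. None of 9 genes of the first group and none of 4 of the third held it. *Ccl7*, *Ccl4*, *Cd86*, *Egr3*, *Egr1* and *Ccl2* of the first group had no promoter in the table. Neither did *Parp14* and *Il15* of the second and *Ccnd1* of the third, so none of these were searched for any motif. The AP-1 site TGANTCA was in *Rcan1*, *Zfp36l1*, *Emp1* and *Il1rn* of the first group, 4 of 9, in 4 of 11 genes of the second (*Rsad2*, *Ifit3*, *Ifi203* and *Mndal*) and in 1 of 4 of the third (*Fgf13*), against 8.97% of all genes. The cyclic AMP response element and the CLEAR element were each in *Rcan1* alone, against 2.03% and 0.370% of all genes. The E-box CACGTG, which is part of the CLEAR element, was also in *Rcan1* alone, against 8.09%. The CArG box of serum response factor and the X box of class II genes were in none of the searched genes, against 1.81% and 0.944%. *Egr1* and *Egr3* were not among those searched. Common motifs were in at most 5 genes of any group. These were the PU.1 core GAGGAA, in 31.3% of all genes, the TATA box TATAAA, in 15.7%, the cell cycle element TTTGAA, in 20.2%, and the CCAAT box, in 41.1%. Matches describe the letters in these windows only.

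The third group had 5 genes, *Fgf13*, *Hmga2*, *Fat3*, *Ccnd1* and *Odc1*. With all kept cells no group held any of them, and at 1000 and at 4000 UMIs a group held 3 of them. *Ccnd1* encodes cyclin D1, *Odc1* the first enzyme of polyamine synthesis, *Hmga2* a chromatin protein and *Fat3* a large cadherin. The mean r was 0.201 and the highest, of *Fgf13* with *Fat3*, was 0.289. The sum had a median of 1 UMI per cell and a 95th percentile of 8. It was 1937 CPM in cluster 2, 1283 CPM in cluster 4, 652 CPM in cluster 6 and 264 CPM in cluster 1. These cells were outside the cycling cluster, in which the 5 genes summed to 1596 CPM.

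**Figure D4:**
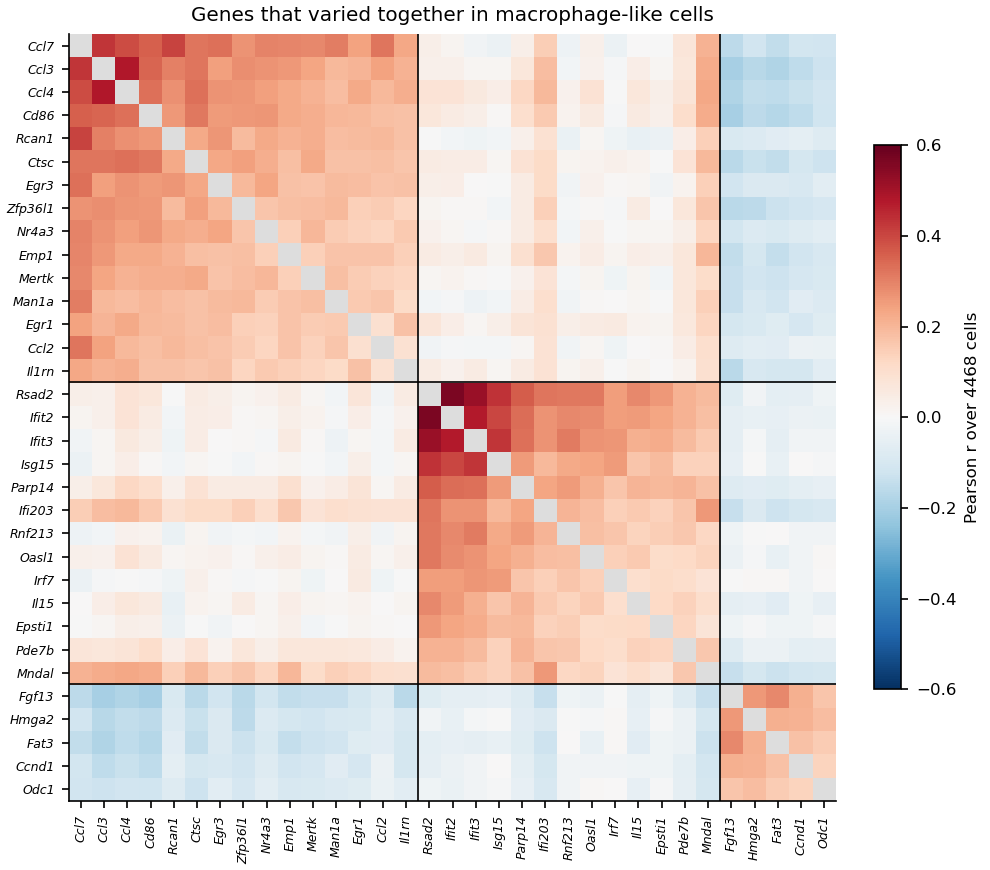
Pearson's r over 4468 macrophage-like cells, each at 2000 UMIs, for the 33 genes of the 3 groups, which black lines divide. Red is positive, blue negative and grey the diagonal. The blocks on the diagonal are red, with means of 0.222, 0.221 and 0.201, and the block between the chemokine group and the *Fgf13* group is blue.

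The chemokine group and the *Fgf13* group were opposed. The sums of their UMIs per cell correlated at an r of -0.413, and at -0.381 when each came from a separate draw of UMIs. Of the 351 cells with no UMI of the chemokine group, 18.5% (14.6 to 22.98) also had none of the *Fgf13* group. This share was 24.1% in the 1527 cells with 1 to 3 chemokine group UMIs, 41.6% in the 1566 cells with 4 to 9, and 63.9% (60.8 to 66.8) in the 1024 cells with 10 or more. The mean number of *Fgf13* group UMIs went from 3.79 to 0.661 over these 4 sets. The median depth of the cells before drawing was 5260 in the first set and 4052 in the last, so depth moved with the pattern, and its part was not tested. The interferon group was less tied to either, with an r of 0.253 to the chemokine group and -0.206 to the *Fgf13* group.

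**Figure D5:**
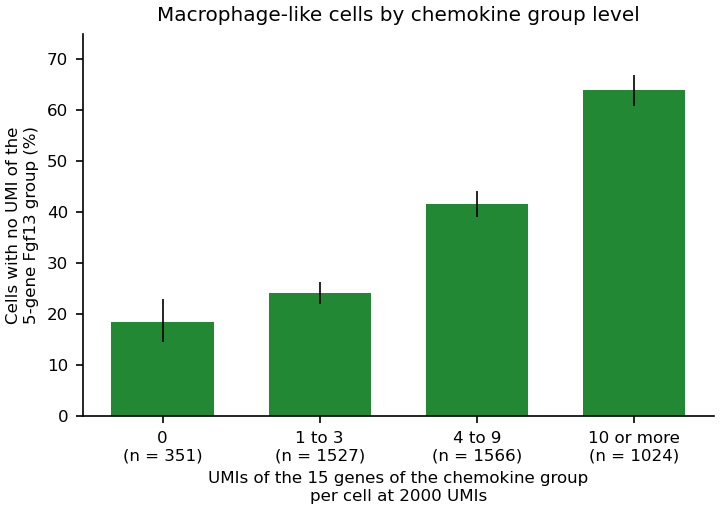
Share of macrophage-like cells with no UMI of the 5-gene *Fgf13* group (vertical axis, percent) in 4 sets of cells by the number of UMIs of the 15 genes of the chemokine group (horizontal axis), at 2000 UMIs per cell. Lines are exact binomial 95% intervals. The share is 18.5% with none and 63.9% with 10 or more.

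The opposition reached abundant genes, seen from the partners of the markers among 2976 other named genes. *Lpl* correlated with *Actb* at 0.599, *Pcdh7* at 0.450, *Actg1* at 0.405, *Fgf13* at 0.404 and *Cdk14* at 0.381. Its most negative partners were *Lyz2*, the lysozyme gene, at -0.401, *Slc9a9*, an endosomal sodium-proton exchanger, at -0.394 and *Ier3* at -0.391. *Lpl* stood at 321 CPM in cluster 1 and at 2932 CPM in cluster 2, and *Lyz2* at 14101 and 8432 CPM. *Csf1r* went weakly with the *Lyz2* side, with *Selenop* at 0.165, *Slc9a9* at 0.157, *Atp2b1* at 0.153, *Lyz2* at 0.150 and *Apoe* at 0.147, and with *Lpl* at -0.248 and *Actb* at -0.228. Its correlation with itself between draws was 0.151, and the order of its partners changed when the genes of a pair came from separate draws, so only their sign is read.

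*Fth1* went with *Ftl1* at 0.474, *Ctsd* at 0.454, *Lgals3* at 0.428, *Fabp5* at 0.313 and *Ctsl* at 0.301. Its most negative partners were *Slc9a9* at -0.210, *Pid1* at -0.199 and *Dab2*, an endocytic adaptor, at -0.195. At a fixed total of UMIs an abundant gene lowers the others in the same cell, and *Fth1* took a mean of 83.6 of 2000. The part of this in its negative values was not tested. *Cd68* had *Lgals3* (0.180), *Ftl1* (0.180), *Fth1* (0.161), *Ctsl* (0.146) and *Fabp5* (0.142) as its closest partners and *Cd86* (-0.120), *Slc9a9* (-0.116) and *Arl4c* (-0.106) as its most negative ones, with a self-correlation of 0.110, and their order is likewise not read. For *Adgre1* all values lay between -0.123 (*Actb*) and 0.0951 (*Slc9a9*), too weak to read at its level.

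A grouping of the 213 named genes with a mean of at least 1 UMI in these cells, added after the other results were seen, gave 6 groups with 49 genes. One held *Lpl*, *Actb*, *Pcdh7*, *Actg1*, *Cdk14*, *Ptma*, *Myo1e* and 5 others. One held *Ctsd*, *Fth1*, *Ftl1*, *Fabp5*, *Ctsb*, *Lgals3*, *Ctsl*, *Gpnmb*, *Psap* and 3 others, which summed to 120041 CPM. One held *S100a4*, *Lgals1*, *S100a6*, *Tmsb4x* and *Vim*, with 3 others, and one *Lyz2*, *Selenop*, *Ier3*, *Apoe*, *Itm2b*, *Il1b*, *Ms4a7* and *Cxcl2*. The smaller ones held *Prdx1*, *Malt1*, *Cd36*, *Txnrd1* and *Dock2*, and *Rasgef1b*, *Plek*, *Cybb* and *Atp2b1*. The *Lpl* and *Actb* group and the *Lyz2* group had opposite sums, with an r of -0.572. The first correlated with the *Fgf13* group at 0.553 and with the chemokine group at -0.546, and the *Lyz2* group at -0.439 and 0.486. With the number of UMIs of the cell before drawing, the sums of the *Lpl* and *Lyz2* groups correlated at 0.335 and -0.293.

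The study named genes for macrophage subsets on these and the treated cells, and 14 of them, without those of its cell cycle subset, were placed among the groups. *Ccl3*, *Ccl4*, *Cd86* and *Zfp36l1* were in the chemokine group and *Apoe*, *Ier3* and *Selenop* in the *Lyz2* group. *Fgf13* and *Ccnd1* were in the *Fgf13* group and *Lpl* and *Actb* in the *Lpl* group. *Lgals3* was in the group of ferritin. *Atp6v0a1* and *Slc9a9* were in none, although *Slc9a9* joined the chemokine group at 1000 UMIs, with separate draws and with all kept cells or cluster 3 included. Over all kept cells 13 of the 14 had a CV of at least 0.5, against 46% of all tested genes, from 0.524 for *Lgals3* to 2.62 for *Apoe*, and *Actb* had 0.496. In macrophage-like cells *Lgals3* had 0.467 and *Actb* 0.510. Since the authors chose these genes on these cells, that count is no independent support.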

How the data were processed

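The authors aligned the reads to the mouse mm10 reference with Cell Ranger, version 7.1.0 by the labels and an earlier one by the paper. The deposited values are UMI counts per gene and called barcode, without normalization, and every stored value was found to be whole. Whether intron reads were counted is not given in the sources used here. Members and gene lists were chosen with earlier results of these data known. Of the Ctrl barcodes, 10 also occur in LP1 and 7 in LP4.

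For CPM, the UMIs of a gene were summed over the kept cells, with an exact Poisson interval. Cells were drawn to 2000 UMIs without replacement (seed 20). Named genes have no mitochondrial, ribosomal protein or clone-type symbol. The genes named are the 5 markers, the 30 most abundant, the 15 (all cells) and 30 (macrophage-like cells) with the largest CV, the 10 with the smallest, up to 8 per group, the partners of the markers, up to 4 per list and the subset genes of the study. The rest of each group and further list members were chosen after their values were seen. Some genes that these rules name are not reported here.

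Clusters came from 2000 variable genes, 30 principal components, 20 neighbours and the Leiden method (resolution 0.5) (scanpy 1.11.5, leidenalg 0.10.2), and were named by 3 markers among the 10 leading genes, or 3 macrophage markers in 50% of cells. Groups were cut from average linkage on 1 - r at 0.85, with at least 4 genes. Python 3.11.15, numpy 2.4.6, scipy 1.17.1 and pandas 2.3.3 were used. CV and grouping were also run on simulated data, and the outcome is not reported here. The alternatives were other cell filters, depths, minimum means, linkage limits, resolutions, random draws and cell sets. Of the treated libraries, only the barcodes and the number of cells within the same limits were used.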

Additional observations from a re-analysis of the deposited data

How the results depend on the processing

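No paired analysis was possible because each condition is 1 library. For the same reason no result carries an error between cultures, and no library could be left out. The share of UMIs in the 10 most abundant genes was 18.0% without mitochondrial and ribosomal protein genes, 15.7% without the 342 cells with the highest doublet scores, 15.8% as a mean over cells and, among alternatives chosen after seeing the data, 15.7% without neutrophil-like cells and 14.4% without *Gm42418*. The lowest marker share, that of *Adgre1*, was 15.5% at 1000 UMIs, 46.1% at 4000, 56.4% without drawing and, as an alternative chosen after seeing the data, 30.8% in macrophage-like cells alone. Genes with a CV of at least 0.5 numbered 753 at 1000 UMIs and 2280 at 4000, 2458 at a minimum mean of 0.05 and 729 at 0.2. These counts follow the number of genes tested, of which they were 46.2%, 45.5%, 49.4% and 44.5%. With another random draw 1452 genes passed, of which 1199 were among the 1447, so single genes near 0.5 are not settled at this depth. Genes in co-varying groups numbered 20 at 1000 UMIs and 66 at a linkage limit of 0.90, and between 23 and 46 under the other alternatives on variable genes. The largest overlap with the interferon group fell to 4 of its 13 genes at 1000 UMIs and 7 at 4000, and that with the chemokine group to 7 of its 15 at 1000. A group with at least 3 of the 5 *Fgf13* group genes was found under each alternative on variable genes except with all kept cells, where a group of 9 cell cycle genes and one of 7 genes with *Mmp12* and *Atp6v0d2* appeared. At a resolution of 0.3 the macrophage-like share was 72.4%, and at 0.8 it was 63.7%. Cluster 3 had 978 cells, and the cluster that met the same naming rule had 1263 and 643. At 0.8 a cluster of 538 cells (8.86% of cells) also met the naming rule for dendritic cell-like. The class II gene *H2-Aa* had a UMI in only 2.68% of all cells before drawing. Most of that cluster thus had none, and it is given no cell type here. Without barcodes shared with another library, every group kept its genes. None of the 6 correlations of named pairs that were recomputed changed sign, but that of *Ccl3* with *Ccl4* was 0.308 at 1000 UMIs, against 0.478.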
